A study of Rattus norvegicus with 63 samples.

Results

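Beta-catenin and the proteins around it were measured in rat liver by 6 analytes of a reverse-phase protein array that held 152 other analytes. The members are all analytes whose deposited name starts with CTNNB1, APC, CSNK1A1 or GLUL. They comprise 4 total proteins, namely beta-catenin (CTNNB1), the scaffold APC, casein kinase 1 alpha (CSNK1A1) and glutamine synthetase (GLUL), and 2 phosphorylated forms of beta-catenin, CTNNB1_P-S675 and CTNNB1_P-T41/S45. The choice used the names and no measured value, but it was made with earlier results of these data known.

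Beta-catenin links cadherins to the cytoskeleton and, when it accumulates, acts with TCF factors in the nucleus. In the absence of a Wnt signal it is held by APC and AXIN, primed by casein kinase 1 alpha at serine S45 and then phosphorylated by GSK3 at T41 and the serines before it, which marks it for degradation. Phosphorylation at S675, a site of protein kinase A, is associated with a stable and transcriptionally active protein. In the liver the pathway is active in the hepatocytes around the central vein, where glutamine synthetase, which turns ammonia and glutamate into glutamine, is its classical target, together with cytochromes P450 such as CYP2E1 and CYP1A2.

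The arrays held lysates of 63 livers of male Wistar Hanover rats that were 8 to 10 weeks old when assigned. 45 animals had received 1 of 15 compounds by gavage and 18 had received a vehicle, with 3 animals in each of the 21 groups. The study asked whether early changes in the liver distinguish classes of carcinogens. Per its methods, the treated animals were chosen from larger groups because histology showed some change in their livers, so the values describe selected animals.

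The 8 non-genotoxic carcinogens (NGC) were acetamide (AA, 3000 mg/kg/d, 14 days), diethylstilbestrol (DES, 10 mg/kg/d, 3 days), dehydroepiandrosterone (DHEA, 600 mg/kg/d, 14 days), ethionine (ETH, 200 mg/kg/d, 14 days), methylcarbamate (Mcarb, 400 mg/kg/d, 14 days), methapyrilene HCl (MPy, 60 mg/kg/d, 7 days), phenobarbital sodium (PB, 14 days, dose not in the labels) and piperonylbutoxide (PBO, 1200 mg/kg/d, 3 days). The 2 genotoxic carcinogens (GC) were C.I Direct Black (CIDB, 146 mg/kg/d, 7 days) and dimethylnitrosamine (DMN, 4 mg/kg/d, 7 days). The 2 non-carcinogens (NC) were cefuroxime (CFX, 250 mg/kg/d, 14 days) and nifedipine (Nif, 3 mg/kg/d, 14 days). Cyproterone acetate (CPA, 100 mg/kg/d, 14 days), Thioacetamid (TAA, 19.2 mg/kg/d, 7 days) and Wy-14643 (Wy, 60 mg/kg/d, 3 days) had no defined class. CIDB, DMN and CPA were given in corn oil (CO) and all other compounds in methylcellulose (MC). The labels tie each compound to 1 of 6 control sets, which are set 1 (MC) for AA, DHEA, Mcarb, MPy, TAA and Wy, set 2 (MC) for CFX and Nif, set 3 (CO) for CIDB and DMN, set 4 (CO) for CPA, set 5 (MC) for DES, ETH and PBO, and set 6 (MC) for PB. The study's methods describe the control groups as time-matched, whereas all MC control animals are labelled 14 days. By the labels, the duration for MPy, TAA, Wy, DES and PBO differed from that of their controls. Its effect then cannot be told apart from that of the compound. Compounds of the same set share their control animals.

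Each value is a relative fluorescence intensity (RFI) on a linear scale. Median RFI over the analytes ranged from 0.425 to 0.882 between animals. The liver transcription factor HNF4A was above 0 in all 63 animals, at 1.07 to 2.93 RFI, whereas no analyte of the array represented the markers listed for biliary, stellate, immune or endothelial cells, or the listed periportal enzymes. The median log2 difference of all analytes against the control set moved by more than 0.1 for 9 compounds, from -0.29 in PB to 0.23 in CPA. Some differences are therefore also given after subtraction of each animal's median (centred). These are CTNNB1_P-T41/S45 in CPA and Wy, total CTNNB1 in CPA, DHEA, PB and Wy, and CTNNB1_P-S675 in PB. All other differences of the members, among them those of GLUL, are given without centring.

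Among the members, the phosphorylated form CTNNB1_P-T41/S45 was the only one of the 5 analytes fitted on the log2 scale to pass the test in any compound. It rose under CPA and fell under Wy, while total CTNNB1, CTNNB1_P-S675, APC and CSNK1A1 passed in no compound in the log2 fit. GLUL lay below all animals of its control set in 9 compounds without passing the test in any compound on the linear scale. In DMN, PBO, TAA and Wy its values included some at or below 0. Over all analytes, 9.24% of the pairs of analyte and compound lay below without overlap. CDKN1B_P-S10 and MAPK3_P-T202/Y204 did so in at least as many compounds as GLUL. The calls rest on limma, fitted over all animals and all analytes, with Benjamini-Hochberg adjustment over the analytes of a compound and a threshold of 0.05. For the 5 analytes other than GLUL, 2 of 75 differences were called. Over all analytes the share called in the same fit was 0% for AA, CFX, Mcarb, MPy and Nif, 1.27% for DMN and ETH, 2.53% for DES, 3.16% for TAA, 5.06% for CPA and PB, 6.33% for DHEA and PBO, 7.59% for CIDB and 8.86% for Wy. Over all compounds that was 3.16%, so the members' calls were not more frequent than those of the array.

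**Figure D1:**
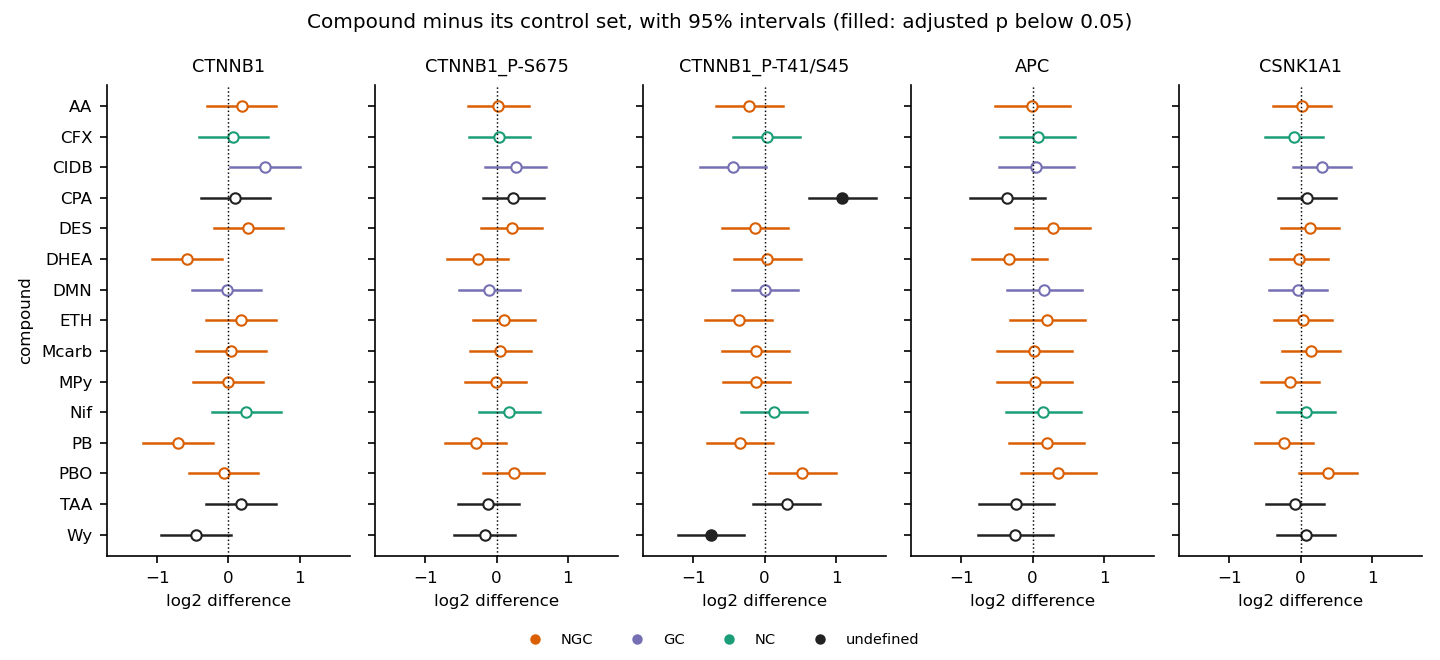
Log2 difference (x axis) between each of 15 compounds (y axis) and its control set for 5 analytes, with 95% confidence intervals of the limma fit as bars, coloured by class. Filled points passed an adjusted p of 0.05, which only CTNNB1_P-T41/S45 did, at 1.09 in CPA and -0.75 in Wy.

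APC, the scaffold of the complex that degrades beta-catenin, was a dim analyte with a median RFI of 0.165 over the 63 animals, which placed it 141st by brightness among all analytes. Its group means ran from 0.140 ± 0.00566 (SD, n = 3) in DHEA to 0.227 ± 0.0485 (SD, n = 3) in CO set 4. The log2 differences ran from -0.36 in CPA (95% CI -0.88 to 0.17) to 0.36 in PBO (95% CI -0.16 to 0.89), and no compound had an unadjusted p below the threshold. The 3 animals under DHEA, at 0.134, 0.144 and 0.143 RFI, lay below the 0.162, 0.175 and 0.191 RFI of MC set 1, although the fitted log2 difference of -0.32 (SE 0.26) had an adjusted p of 0.64 by limma. The intervals of CPA, DHEA, TAA and Wy included -0.75, the difference of CTNNB1_P-T41/S45 under Wy, so that a fall of that size in APC was not excluded in these compounds.

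CSNK1A1, the kinase that primes beta-catenin, had 1.05 to 2.46 RFI over all animals with a median of 1.47. Its group means lay between 1.33 ± 0.25 RFI (SD, n = 3) in MPy and 2.00 ± 0.470 RFI (SD, n = 3) in PBO. In PBO the animals had 2.00, 2.46 and 1.52 RFI and the animals of MC set 5 had 1.54, 1.77 and 1.23 RFI. These ranges overlap, and the log2 difference of 0.39 (95% CI -0.02 to 0.79) had an adjusted p of 0.31 by limma. For the other 14 compounds the log2 differences ran from -0.24 in PB to 0.30 in CIDB.

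CTNNB1_P-T41/S45, the form carrying the marks of casein kinase 1 and GSK3, differed between compounds more than total beta-catenin did. Under CPA, a steroidal antiandrogen and progestin, the 3 animals had 0.621, 0.405 and 0.438 RFI, against 0.249, 0.230 and 0.2 RFI in CO set 4. All animals under CPA lay above all control animals of that set, and the highest of them had the highest value of all 63 animals. The mean was 0.488 ± 0.116 RFI against 0.226 ± 0.0246 RFI (SD, n = 3 each), a ratio of 2.16. The log2 difference was 1.09 (SE 0.23, 95% CI 0.62 to 1.56, adjusted p = 0.000931 by limma) and 0.87 after centring (adjusted p = 0.00429). A fit of these 6 animals alone gave an adjusted p of 0.0559, and leaving out each of the 6 animals in turn gave log2 differences of 0.90 to 1.21 with adjusted p of 0.00139 to 0.0290.

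Under Wy, a peroxisome proliferator that activates PPAR alpha, CTNNB1_P-T41/S45 stood at 0.142, 0.201 and 0.214 RFI. MC set 1 had 0.299, 0.348 and 0.278 RFI. The Wy values lay below all 3 control values, with means of 0.186 ± 0.0386 RFI and 0.309 ± 0.0355 RFI (SD, n = 3 each) and a ratio of 0.602. The log2 difference was -0.75 (SE 0.23, 95% CI -1.22 to -0.28, adjusted p = 0.0276 by limma) and -0.66 after centring (adjusted p = 0.0259). The call was lost without the first Wy animal (log2 difference -0.57, adjusted p = 0.276), without animal 4 of MC set 1 (-0.77, adjusted p = 0.0699) and without animal 5 of MC set 1 (-0.66, adjusted p = 0.156), and on the linear scale (adjusted p = 0.175).

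In the other 13 compounds CTNNB1_P-T41/S45 passed no test. The largest of these differences was that of PBO, where 0.388, 0.483 and 0.293 RFI stood against 0.314, 0.312 and 0.186 RFI in MC set 5, with overlapping ranges, a log2 difference of 0.53 (95% CI 0.06 to 1.00) and an adjusted p of 0.19 by limma. CIDB had 0.302, 0.173 and 0.154 RFI against 0.224, 0.239 and 0.376 RFI in CO set 3, a log2 difference of -0.44 (95% CI -0.91 to 0.03). Over the remaining 11 compounds the log2 differences lay between -0.36 in ETH and 0.31 in TAA. A moderated F test over all 15 compounds gave an adjusted p of 0.000315 for CTNNB1_P-T41/S45 and of 0.0465 for total CTNNB1, while CTNNB1_P-S675 and CSNK1A1 had 0.81 and APC 0.91. By this test 18.4% of all analytes were called in the log2 fit and 15.2% in the linear fit. The F test of total CTNNB1 was close to its threshold and passed in no more than a minority of the fits that left out 1 animal, as given in the closing section.

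**Figure D2:**
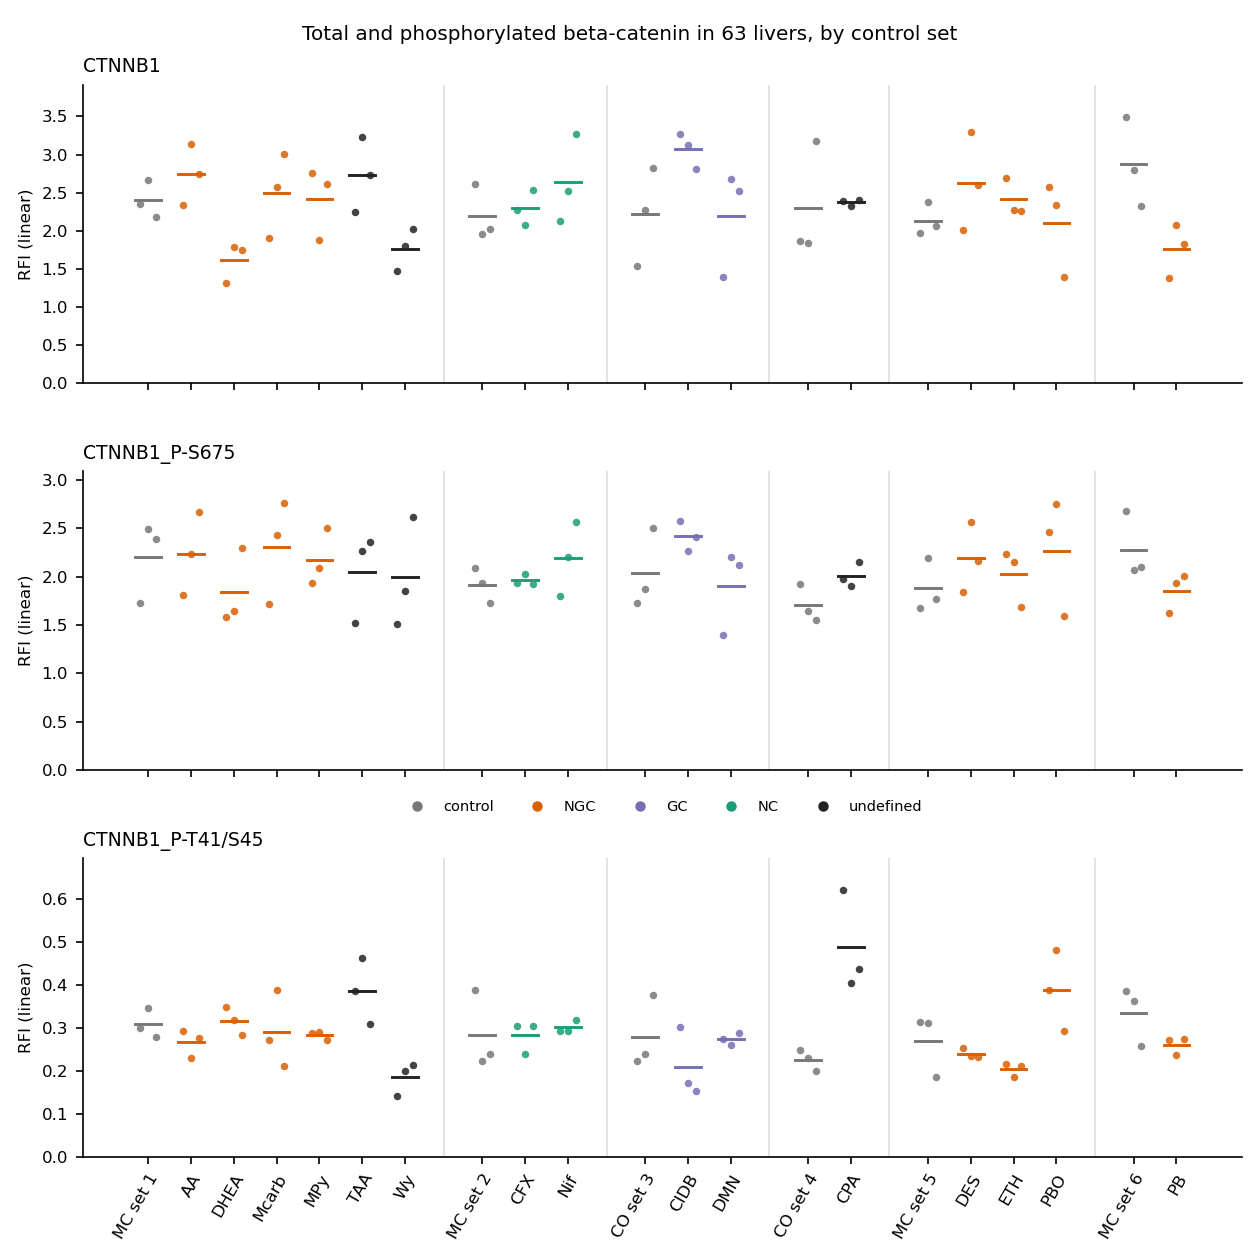
RFI on a linear scale (y axes, starting at 0) of total CTNNB1, CTNNB1_P-S675 and CTNNB1_P-T41/S45 in 63 livers, grouped on the x axis by control set with each set's controls first. Each point is an animal, each bar the mean of 3 animals, and the colour gives the class. The 3 CPA animals stand above CO set 4 in the lowest panel and the 3 Wy animals below MC set 1.

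Total beta-catenin was bright, at 1.31 to 3.50 RFI and with a median of 2.34. Its lowest group means were those of DHEA, Wy and PB. DHEA, an adrenal steroid that also causes peroxisome proliferation in rats, gave 1.31, 1.78 and 1.75 RFI, Wy gave 1.47, 1.79 and 2.02 RFI, and MC set 1, their shared control, gave 2.35, 2.67 and 2.18 RFI. PB, the classical inducer acting through CAR, gave 1.38, 2.08 and 1.83 RFI against 3.50, 2.79 and 2.33 RFI in MC set 6. In each of these 3 compounds all treated animals lay below all animals of the control set.

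None of these 3 differences passed the test in the log2 fit. They were -0.71 in PB (SE 0.24, 95% CI -1.19 to -0.22, adjusted p = 0.0643 by limma), -0.58 in DHEA (SE 0.24, 95% CI -1.07 to -0.10, adjusted p = 0.144) and -0.45 in Wy (SE 0.24, 95% CI -0.94 to 0.03, adjusted p = 0.351). After centring they were -0.30, -0.37 and -0.36. In PB the median of all analytes was itself lower by 0.29 on the log2 scale (median difference -0.29). HNF4A fell in the same animals (log2 difference -0.59, adjusted p = 0.0350 by limma), and their part in the lower CTNNB1 was not tested. The linear fit called CTNNB1 in PB with an adjusted p of 0.0450, and the log2 fit without animal 3 of MC set 6 called it too (log2 difference -0.85, adjusted p = 0.0263). It was -0.55 (adjusted p = 0.544) without animal 1 of MC set 6, -0.45 (adjusted p = 0.215) against all 12 MC control animals and -0.14 (adjusted p = 0.971) in the deposited matrix. Against all 12 MC control animals DHEA was called (log2 difference -0.57, adjusted p = 0.0320). In CIDB the animals had the highest mean of any group, 3.07 ± 0.234 RFI (SD, n = 3), against 2.21 ± 0.644 RFI (SD, n = 3) in CO set 3. The log2 difference of 0.51 (95% CI 0.03 to 1.00) had an adjusted p of 0.245 by limma. For the other 11 compounds the log2 differences ran from -0.07 in PBO to 0.28 in DES, and each of their intervals included 0.

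CTNNB1_P-S675 showed no difference that passed in any compound, and no unadjusted p below the threshold. Group means ran from 1.71 ± 0.196 RFI (SD, n = 3) in CO set 4 to 2.42 ± 0.158 RFI (SD, n = 3) in CIDB. PB was the compound in which all animals, at 1.63, 1.94 and 2.01 RFI, lay below their control set, at 2.68, 2.06 and 2.10 RFI. Its log2 difference was -0.29 (95% CI -0.72 to 0.14) and 0.12 after centring, so the direction turned with the scaling. The log2 differences of the other 14 compounds lay between -0.26 in DHEA and 0.27 in CIDB. A change of S675 phosphorylation as large as that of CTNNB1_P-T41/S45 under CPA lay outside all 15 intervals.

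The ratio of each phosphorylated form to total beta-catenin of the same animal was computed as a description, after the values had been seen, and carries no test. The log2 ratio of CTNNB1_P-T41/S45 to CTNNB1 was -1.94, -2.52 and -2.46 under CPA and -2.91, -3.00 and -3.99 in CO set 4. The difference of 0.99 (95% CI 0.41 to 1.57) was close to that of the phosphorylated form itself, since total CTNNB1 differed from its control by 0.10 on the log2 scale (-0.13 after centring). CIDB went the other way, with log2 ratios of -3.44, -4.17 and -4.19 against -2.79, -3.25 and -2.91 in CO set 3. Its difference of -0.95 (95% CI -1.53 to -0.38) combined a higher total with a lower phosphorylated form.

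Under DHEA the log2 ratio of CTNNB1_P-T41/S45 to CTNNB1 was -1.91, -2.48 and -2.63, above the -2.97, -2.94 and -2.97 of MC set 1. There the phosphorylated form differed by 0.04 and the total by -0.58 on the log2 scale, so that the ratio was 0.62 higher (95% CI 0.04 to 1.2). Under Wy it was -3.37, -3.16 and -3.24, below the same controls, and the difference of -0.30 (95% CI -0.87 to 0.28) was smaller than that of the phosphorylated form alone. The other peroxisome proliferator of the series thus had the opposite sign of this ratio. The difference between DHEA and Wy was not tested. PBO had log2 ratios of CTNNB1_P-T41/S45 to CTNNB1 of -2.73, -2.28 and -2.25 against -2.65, -2.93 and -3.47 in MC set 5, a difference of 0.60 (95% CI 0.02 to 1.17) with overlapping ranges. Over the 15 compounds this ratio lay above the control set without overlap in 2, below it in 3 and overlapped in 10. For single analytes of the array, 6.88% of the pairs of analyte and compound lay above and 9.24% below. No such share was computed for ratios, so whether these counts are unusual was not tested. The ratio of CTNNB1_P-S675 to CTNNB1 varied less, with differences between -0.29 in TAA and 0.41 in PB (95% CI 0.05 to 0.78), the latter from a total that was lower than in its controls by more than the phosphorylated form.

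The regulators on the array gave little further change. Of 24 listed regulators and partners of beta-catenin, 4 proteins with 6 analytes were present: AKT1, AKT1_P-S473, DVL2, GSK3B, GSK3B_P-S9 and PRKACA_P-T197, the last being the active form of the kinase of S675. In 90 tests 0 rose and 2 fell, or 2.22%, against 3.16% of all 2370 tests. Both were GSK3B_P-S9, the inhibited form of the kinase of T41, in DHEA (log2 difference -0.83, adjusted p = 0.00652) and Wy. Under Wy GSK3B_P-S9 had 0.124, 0.145 and 0.150 RFI in ascending order, below the 0.223, 0.260 and 0.279 RFI of MC set 1 (log2 difference -0.86, SE 0.21, adjusted p = 0.00320 by limma). Total GSK3B in the same animals was 0.668 ± 0.0237 RFI against 0.683 ± 0.0844 RFI (SD, n = 3 each) and was not called. Under CPA none of the 6 regulators was called.

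Of 9 listed targets outside hepatocyte zonation, MYC, MYC_P-T58/S62, CCND1 and JUN were present. In 60 tests 1 rose and 1 fell, or 3.33%. JUN, a subunit of AP-1, rose in CIDB (log2 difference 1.54, adjusted p = 1.51e-06 by limma) and MYC, a growth regulator, fell in PB (-0.68, adjusted p = 0.0482). No target was called in CPA or Wy, the compounds in which CTNNB1_P-T41/S45 was called.

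Glutamine synthetase had the lowest signal relative to its scatter. Its RFI ranged from -2.28 to 1.74, and 10 of 63 animals, 3 controls and 7 treated, had a value at or below 0, which can arise when the subtracted background exceeds the signal and gives no level. The study's methods describe blank-corrected levels for its log2 ratios, and treat values exceeded by the signal of the secondary antibody alone as missing. Whether that signal had also been subtracted in the deposited RFI is not given in the sources used here, so the zero of this scale is uncertain. GLUL held 10 of the 25 such values in the whole table, which 5 analytes shared. In the control sets the 3 animals had 1.5, 0.792 and 0.793 RFI in MC set 1, -0.361, 1.2 and 0.262 RFI in MC set 2, 0.573, 1.53 and 0.758 RFI in CO set 3, 1.14, 0.697 and -0.660 RFI in CO set 4, 1.29, 1.54 and 0.849 RFI in MC set 5, and 1.18, -1.34 and 1.74 RFI in MC set 6. All animals of sets 1, 3 and 5 were thus above 0, at 0.573 RFI or more, while sets 2, 4 and 6 each held an animal below 0. The median over the 18 control animals was 0.821 RFI.

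Among the compounds compared with MC set 1, Mcarb had 0.368, 0.270 and 0.370 RFI and DHEA had 0.117, 0.324 and 0.254 RFI. TAA, a hepatotoxin that injures the pericentral zone, had -0.747, 0.0615 and -1.86 RFI, and Wy had 0.0430, 0.127 and -2.28 RFI. In all 4 every treated animal lay below every control animal. AA, at 0.136, 1.32 and 0.189 RFI, and MPy, at 1.4, 0.574 and 0.497 RFI, each had an animal within the control range.

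Of the compounds compared with MC set 5, DES had 0.341, 0.111 and 0.139 RFI, ETH, an antimetabolite of methionine, had 0.462, 0.287 and 0.794 RFI, and PBO, an inhibitor and inducer of cytochromes P450, had 0.307, -1.98 and 0.322 RFI. None of these 9 animals reached the lowest control value of 0.849 RFI. The genotoxic compounds CIDB, at 0.194, 0.0122 and 0.0857 RFI, and DMN, at 0.389, -0.249 and 0.127 RFI, lay below CO set 3 in the same way.

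CPA had 0.542, 0.230 and -1.48 RFI and PB had 0.293, 0.206 and -0.820 RFI. Both overlapped their control sets, which themselves held an animal below 0. The labels do not pair animals of CPA with those of CO set 4. Same-numbered animals of these groups deviated together over the array, and differently numbered animals were not compared. With the replicate number as a block, the GLUL difference in CPA was -0.764 control medians (adjusted p = 0.506 by limma). The non-carcinogens CFX, at 0.673, 0.775 and 1.07 RFI, and Nif, at 0.471, 0.878 and 0.870 RFI, were the compounds with a mean above that of the control set.

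**Figure D3:**
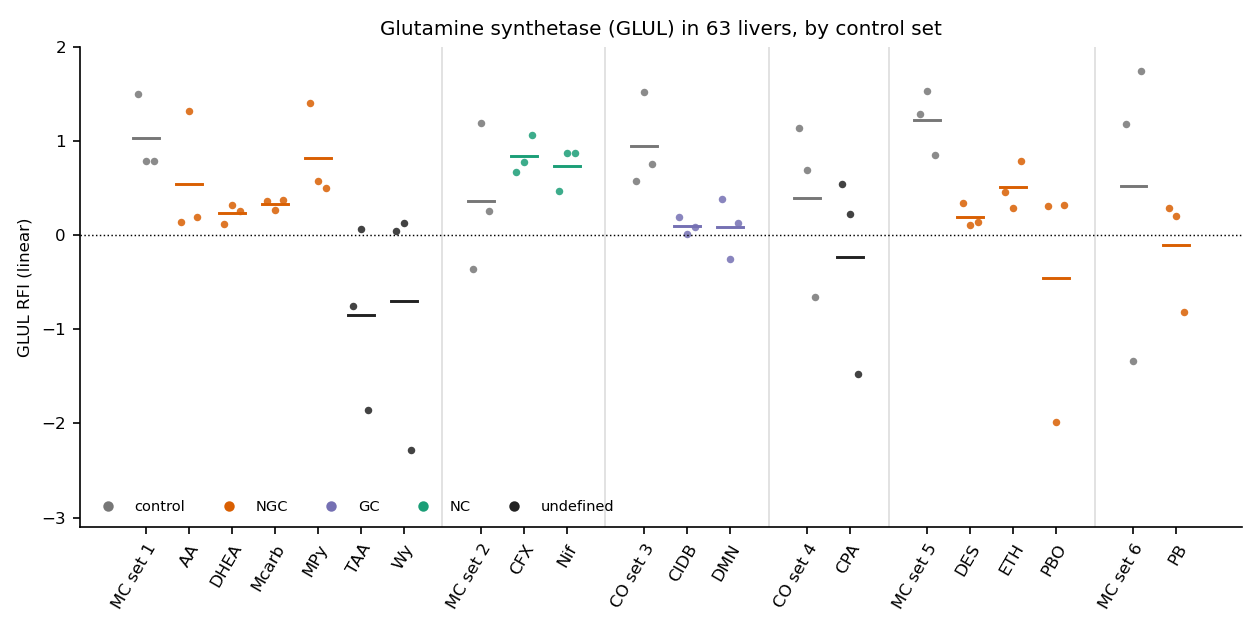
GLUL RFI on a linear scale (y axis) in 63 livers, grouped on the x axis by control set with each set's controls first. Each point is an animal, each bar the mean of 3 animals, the colour gives the class and the dotted line marks 0. In 9 compounds all 3 animals lie below all 3 controls, and 10 animals, 3 of them controls, lie at or below 0.

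In sum over animals, 14 of 18 control animals and 5 of 6 animals given an NC exceeded 0.5 RFI, as did 5 of 39 animals given another compound. The median was 0.822 RFI in the NC animals and 0.206 RFI in the other treated animals, of which 37 of 39 lay below the control median. The threshold of 0.5 RFI was chosen after the values had been seen. In whole-liver lysate fewer pericentral hepatocytes and less glutamine synthetase in each of them cannot be told apart.

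GLUL lay below its control set without overlap in 9 of 15 compounds. Over all analytes, 9.24% of the 2370 pairs of analyte and compound did so, and 6.88% lay above without overlap. The median analyte did so in 1 compound, and 2 other analytes, CDKN1B_P-S10 and MAPK3_P-T202/Y204, in at least as many compounds as GLUL. Since 4 of these compounds share MC set 1, 3 share MC set 5 and 2 share CO set 3, the 9 are not independent. For the other members, CTNNB1 lay below in 3 compounds, CTNNB1_P-S675, CTNNB1_P-T41/S45 and APC in 1 each and CSNK1A1 in 0, and CTNNB1_P-T41/S45 lay above in 1.

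The test on the linear scale, in units of the control median, called GLUL in 0 of 15 compounds by limma. Unadjusted, the p was below 0.05 in PBO, TAA and Wy. The differences were -2.29 in TAA (SE 0.722, 95% CI -3.74 to -0.830, adjusted p = 0.220), -2.11 in Wy (SE 0.722, 95% CI -3.56 to -0.655, adjusted p = 0.0956) and -2.04 in PBO (SE 0.722, 95% CI -3.50 to -0.588, adjusted p = 0.0580). Each of these means rests on animals below 0. Without the PBO animal at -1.98 RFI the PBO difference was -1.11, and without the Wy animal at -2.28 RFI the Wy difference was -1.15. For the other 12 compounds the differences ran from -1.25 in DES to 0.577 in CFX and every interval included 0. The exact two-sided permutation test of 3 against 3 animals gave 0.1, the smallest p this design allows, in each of the 9 compounds without overlap. In this linear fit the share of all analytes called was 0% for AA, CFX, Mcarb, MPy, Nif and TAA, 0.633% for ETH, 1.27% for DMN, 1.90% for DES, 2.53% for CPA, 3.80% for DHEA, 4.43% for CIDB and Wy, 10.1% for PBO and 12.7% for PB.

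The scale decided how many compounds were called. On the log2 scale, with the 10 values at or below 0 missing, GLUL was called by limma in 4 compounds. The log2 differences were -3.89 in CIDB (SE 0.73, adjusted p = 0.000172), -2.77 in DES (SE 0.73, adjusted p = 0.0217), -3.73 in Wy (SE 0.82, adjusted p = 0.00149) and -4.00 in TAA (SE 1.03, adjusted p = 0.0353). The values of Wy and TAA rest on 2 and 1 of their 3 animals, as that fit dropped the others, and the lone TAA animal was assumed to vary like the other groups. CIDB and DES lost no animal. In CIDB the hepatocyte factor HNF4A fell too (log2 difference -0.54, adjusted p = 0.0382 by limma). It was the 1 call among 6 hepatocyte marker analytes in CIDB, whose median log2 difference was -0.19. The part of HNF4A in the lower GLUL was not tested. With values at or below 0 set to the lowest value above 0, or with an inverse hyperbolic sine, no compound was called, and CIDB had an adjusted p of 0.192 and 0.448. The size of the log2 difference of CIDB depends on values close to 0, down to 0.0122 RFI. On the linear scale CIDB was called in a fit of its 6 animals alone (adjusted p = 0.0447 by limma).

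The moderated F test over the 15 compounds did not pass for GLUL on the linear scale (adjusted p = 0.136 by limma). All compounds were then pooled in a contrast added after the values had been seen, the mean of the 15 differences in the same fit. GLUL was lower in units of control medians (mean difference -0.920, SE 0.285, 95% CI -1.49 to -0.346, adjusted p = 0.0407 by limma). Of all analytes, 5.70% passed in this linear contrast and 5.06% in its log2 counterpart, in which GLUL had -1.89 (SE 0.30, adjusted p = 2.64e-05, 53 animals). The linear result was not stable at the threshold, since it was missed against all controls of the vehicle (adjusted p = 0.0572), with trend and robust shrinkage (0.0537), with the inverse hyperbolic sine (0.0507), with values at or below 0 set to the lowest value above 0 (0.0749) and in 20 of 63 fits without 1 animal, with adjusted p of up to 0.209 without animal 4 of MC set 1.

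The order of the group means placed MC set 5 (1.23 ± 0.348 RFI), MC set 1 (1.03 ± 0.409 RFI) and CO set 3 (0.952 ± 0.505 RFI) highest, followed by CFX (0.839 ± 0.205 RFI), MPy (0.825 ± 0.503 RFI), Nif (0.740 ± 0.233 RFI) and AA (0.549 ± 0.669 RFI), all SD with n = 3. In the middle stood MC set 6 (0.527 ± 1.64 RFI), ETH (0.514 ± 0.257 RFI), CO set 4 (0.392 ± 0.938 RFI), MC set 2 (0.366 ± 0.784 RFI), Mcarb (0.336 ± 0.0570 RFI), DHEA (0.231 ± 0.105 RFI) and DES (0.197 ± 0.125 RFI). The lowest were CIDB (0.0974 ± 0.0916 RFI), DMN (0.0890 ± 0.321 RFI), PB (-0.107 ± 0.619 RFI), CPA (-0.235 ± 1.09 RFI), PBO (-0.452 ± 1.33 RFI), Wy (-0.703 ± 1.37 RFI) and TAA (-0.848 ± 0.963 RFI). Neighbours in this order differed by less than the larger of their SDs throughout. By median the order changed, with AA moving from place 7 to place 16, PBO from place 19 to place 11 and MC set 6 from place 8 to place 2.

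Class differences were compared with the compound as the unit. For GLUL the 10 carcinogens differed from their controls by -0.967 ± 0.468 control medians and the 2 NCs by 0.516 ± 0.0856 (SD over compounds). All 10 carcinogens had a negative and both NCs a positive difference, and the gap of -1.48 had an exact permutation p of 0.0152, the smallest that 66 assignments allow. Adjusted over all analytes it was 0.299. Both NCs, and no other compound, were compared with MC set 2, whose animal at -0.361 RFI lowered the reference. The NC class and this control set therefore cannot be told apart. Compounds of a set share their control animals, whereas the exact p treats compounds as independent units. Against all 12 MC control animals the differences were 0.0637 for CFX and -0.0573 for Nif, MPy turned to 0.0461, and the gap was -0.656 with an exact p of 0.106. In the deposited matrix of log2 ratios the gap was -0.99 (exact permutation p = 0.136). NGC and GC differed in GLUL by 0.0981 (exact permutation p = 0.733, smallest p 0.0222).

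For the other 5 members, with the labelled control sets, no class difference had an exact permutation p below 0.311 in NGC against GC (8 against 2 compounds) or below 0.333 in carcinogens against NC (10 against 2 compounds). APC had an exact permutation p of 0.0444 for NGC against GC with all controls of the vehicle (log2 difference 0.34, adjusted p = 0.251) and of 0.0152 for carcinogens against NC in the deposited matrix (-0.56, adjusted p = 0.199). Over all analytes 0% were called in either comparison on either scale, whereas 7 to 11 analytes had an unadjusted p below 0.05. Total CTNNB1 showed the widest gap of these members, -0.09 ± 0.36 in NGC and 0.24 ± 0.38 in GC on the log2 scale. Both GCs had been given in corn oil, so that class and vehicle cannot be told apart.

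**Figure D4:**
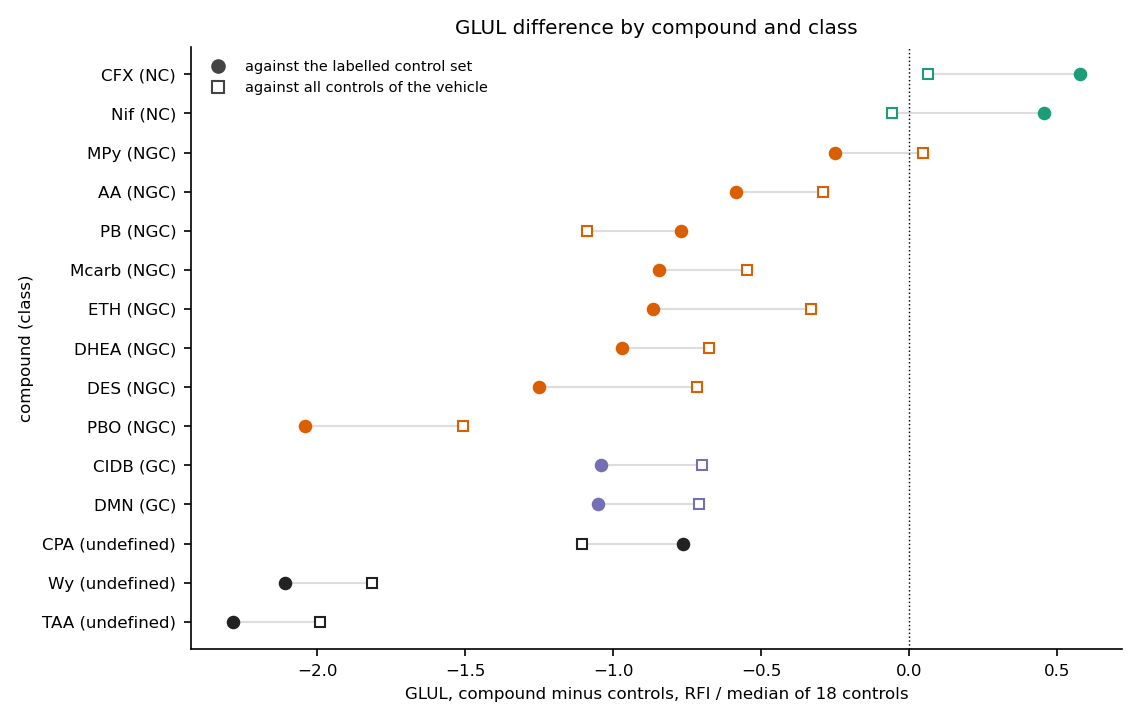
Difference in GLUL RFI between each compound (y axis, with its class) and its controls, in units of the median of the 18 control animals (x axis). Filled circles use the labelled control set and open squares all controls of the vehicle. With the labelled sets the 2 NCs are the compounds above 0, at 0.577 and 0.456, and with all controls of the vehicle they lie at 0.0637 and -0.0573.

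Over the group means GLUL correlated little with the forms of beta-catenin. Several GLUL means rest on values at or below 0, so these correlations cannot show whether the rankings differ. Over the 21 group means the Spearman correlation of GLUL was 0.17 with CTNNB1, 0.04 with CTNNB1_P-S675, -0.06 with CTNNB1_P-T41/S45, 0.03 with APC and -0.17 with CSNK1A1, given as a description since groups share control sets and arrays. The analytes most like GLUL were RPS6KA1_P-T573 (0.65), CDKN1B_P-S10 (0.63) and MAPK3_P-T202/Y204 (0.62). Those most like total CTNNB1 were MAPK14 (0.80), HRAS (0.77) and CTNNB1_P-S675 (0.73). The closest analyte was MTOR for CTNNB1_P-S675 (0.80), IGFBP1 for APC (0.68) and STAT3_P-Y705 for CSNK1A1 (0.88).

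Beside GLUL, 5 of 11 listed pericentral proteins were measured, by 10 analytes. 15 of 150 tests were called in the log2 fit, or 10.0%, against 3.16% of all 2370 tests. Of these 15, 10 rose and 5 fell, and CYP3A4_2 alone gave 5 of the rises and 2 of the falls. Neither analyte of CYP2E1, the pericentral enzyme of ethanol oxidation, was called in any compound. CYP2E1_1 had an unadjusted p below 0.05 in 1 compound and CYP2E1_2 in 0. The rises were in drug-inducible enzymes, and under CPA they were CYP3A4_2 from 0.865 to 1.14 RFI in CO set 4 to 41.7 to 43.3 RFI (log2 difference 5.36, adjusted p = 4.34e-19 by limma), CYP2B6_1 (2.04, adjusted p = 1.54e-05) and CYP2C8 (1.77, adjusted p = 0.00266). Under Wy CYP2B6_3 fell from 69.8 to 137 RFI in MC set 1 to 16.8 to 27.4 RFI (log2 difference -2.19, adjusted p = 0.00149) and CYP1A2_1 fell from 1.2 to 1.41 RFI to 0.656 to 0.797 RFI (-0.82, adjusted p = 0.0310). No other analyte of the same protein was called with them. CYP3A4_1, CYP2B6_2 and CYP1A2_2 were called in 0 of 15 compounds, with log2 differences of -0.54 to 0.11, -0.25 to 0.29 and -0.26 to 0.28. CYP2B6_1 under Wy had a mean of 0.413 RFI against 0.395 RFI in MC set 1. In the 4 compounds with GLUL called on the log2 scale, CYP3A4_2 fell in CIDB and TAA, CYP2B6_3 in TAA and Wy, CYP1A2_1 in Wy and no other pericentral analyte in DES. Of 6 analytes listed as hepatocyte markers, most of them among these cytochromes, 2 tests rose and 3 fell of 90, or 5.56%, against the same 3.16%.

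Within groups some pairs of members moved together from animal to animal. Deviations of the 63 animals from their group means correlated between CTNNB1 and CTNNB1_P-S675 with r = 0.70 and rho = 0.69 (permutation p = 1e-05 for each, the smallest that 100000 permutations within groups can give, adjusted p = 0.00013 and 0.00012 over 909 relations of a member with another analyte). Without the 2 animals farthest from the median of CTNNB1, r was 0.64. CSNK1A1 correlated with CTNNB1_P-S675 with r = 0.64 and rho = 0.64 (permutation p = 3e-05 and 4e-05), and with CTNNB1_P-T41/S45, its substrate form, with r = 0.50 and rho = 0.48 (permutation p = 0.00044 and 0.00077).

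A large share of this was common to the array. The median deviation of all analytes other than the members correlated with CSNK1A1 with r = 0.80 and rho = 0.81 (permutation p = 1e-05 for each), with CTNNB1_P-S675 with r = 0.69 and rho = 0.70 (permutation p = 1e-05 for each), with CTNNB1 with r = 0.65 and rho = 0.65 (permutation p = 3e-05 for each) and with GLUL with r = -0.10 and rho = -0.09 (permutation p = 0.65 and 0.59). After subtraction of that median, CTNNB1 and CTNNB1_P-S675 kept r = 0.46 whereas CTNNB1 and CSNK1A1 went from 0.54 to 0.06 and CSNK1A1 and CTNNB1_P-T41/S45 from 0.50 to 0.17. GLUL deviated from the other members in the negative direction, with r between -0.32 for CSNK1A1 (rho = -0.31, permutation p = 0.058 and 0.049, adjusted p = 0.10 and 0.087) and -0.14 for CTNNB1_P-T41/S45, and none of these 5 relations passed after adjustment. The part of spotted protein amount in these relations was not tested.

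**Figure D5:**
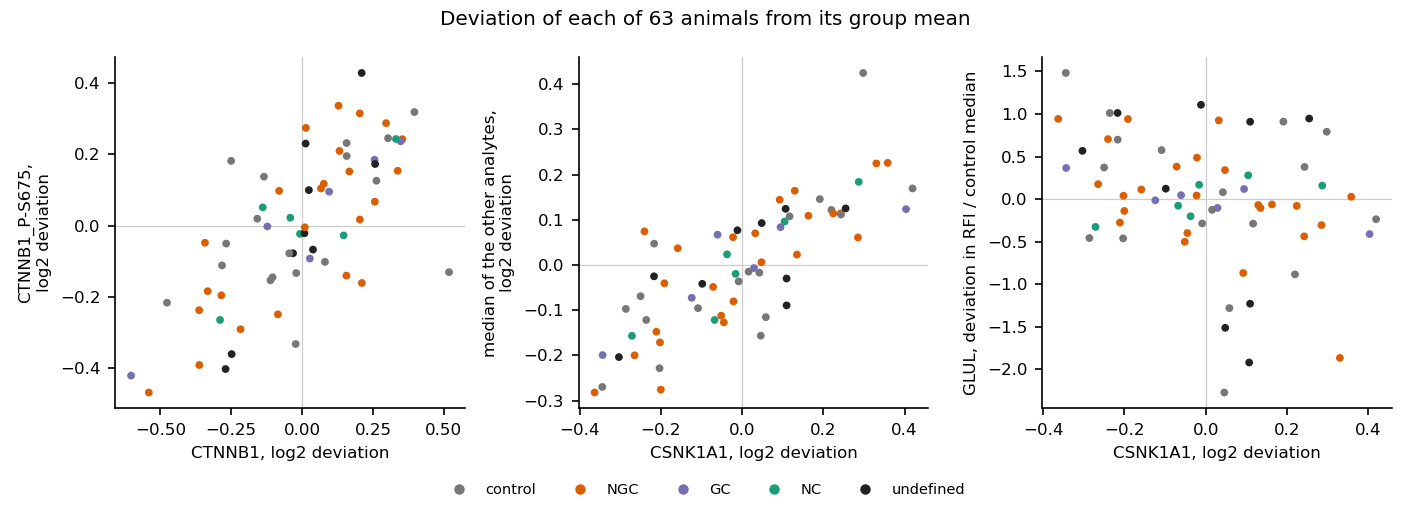
Deviation of each of 63 animals from its group mean, on the log2 scale for CTNNB1, CTNNB1_P-S675, CSNK1A1 and the median of the other analytes, and in RFI per control median for GLUL. Each point is an animal, coloured by class. CTNNB1 and CTNNB1_P-S675 rise together (r = 0.70), CSNK1A1 follows the median of the other analytes (r = 0.80), and GLUL against CSNK1A1 shows r = -0.32.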

How the data were processed

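Reverse-phase protein arrays were analysed for 63 rat livers (21 groups of 3 animals). According to the study's methods, lysates were adjusted to a common protein concentration, and spots had their local background subtracted, were normalized within the array and were combined as weighted means of replicate spots. The authors deposited the result as a relative fluorescence intensity (RFI) per animal and analyte on a linear scale. The authors also deposited a matrix of log2 ratios to the control median, in which values exceeded by the secondary antibody signal had been imputed, and this served as an alternative. The same name in both tables matched best for CTNNB1, CTNNB1_P-T41/S45, APC and GLUL (Spearman correlation of deviations from group means 0.49 to 0.81), but CSNK1A1 was only in place 22 (0.32) and CTNNB1_P-S675 in place 3 (0.46). 0 columns lacked a sample.

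Members, lists and tests were chosen with earlier results of these data known. Log2 RFI (values at or below 0 missing) and, for GLUL, RFI divided by the median of the 18 control animals were fitted for all analytes with limma 3.58.1 (R 4.3.3, lmFit and eBayes, 21 group means), contrasting each compound with its labelled control set. P-values were adjusted by the Benjamini-Hochberg method, with a threshold of 0.05. Intervals are 95% intervals of the fit, or of the pooled SD for ratios of phosphorylated to total protein. Exact permutation tests used scipy 1.17.1 and enumeration of class labels. Animal deviations were permuted within groups 100000 times.

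Besides the members, the text names for each member the analyte with the highest Spearman correlation over group means (3 for GLUL and CTNNB1, and that of CTNNB1_P-T41/S45 is not reported here) and called members of the pathway lists, at most 3 per list in CPA and Wy. GSK3B, HNF4A, JUN, MYC, CYP2E1_1, CYP2E1_2, CYP1A2_2, CYP2B6_2, CYP3A4_1, CYP2B6_1 under Wy and list members in other compounds were named after their values had been seen. Same-numbered animals of CPA and CO set 4 deviated together (r = 0.16 to 0.31 over analytes, above a limit of 0.1). Those of PB and MC set 6 did not (0.00721 to 0.0685). The labels name no pairs, and differently numbered animals were not compared. The scripts were tested on simulated data. Alternatives were centring, other controls, the matrix, other shrinkage, 6-animal fits, dim analytes left out (median RFI below 0.2), each animal left out, a replicate block and other scales for GLUL. The number of animals, and not a count or depth, limits the precision.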

Additional observations from a re-analysis of the deposited data

Results flagged for a closer look

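Among the 6 corn oil control animals, CTNNB1_P-T41/S45 of animal 6 of CO set 3 stood apart at 0.376 RFI, with a gap to its neighbour of 0.724 of the whole range. This exceeds the limit that chance passes in about 1 in 20 groups, and 6 analytes were examined. This animal is a control of CIDB and DMN. Against all 6 corn oil controls, which include it, the log2 difference under CPA was 0.95 (adjusted p = 0.00105 by limma).

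GLUL differed in sign between classes. All 10 carcinogens lay below and both NCs above their labelled control sets, with a difference of -1.48 control medians between the class means. The exact permutation p over compounds was 0.0152 and the adjusted p 0.299, and the split of signs was lost against all controls of the vehicle. Both NCs share MC set 2, which no carcinogen uses, so class and control set cannot be told apart.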

How the results depend on the processing

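The 2 calls of the 5 members on the log2 scale became 1 with the deposited log2 matrix and 1 with fits of 6 animals alone, and ranged from 1 to 3 over fits without 1 animal. With all controls of the vehicle there were 3. The rise of CTNNB1_P-T41/S45 under CPA lost its call in the 6-animal fit and in none of the other settings, and its fall under Wy was also lost with the matrix (log2 difference -0.95, adjusted p = 0.115). The cause was not tested. The 0 calls of GLUL on the linear scale became 4 on the log2 scale with values at or below 0 missing, 2 against all controls of the vehicle (TAA and Wy) and 1 in fits of 6 animals alone (CIDB), and ranged from 0 to 2 without 1 animal (2 without animal 2 of MC set 6, 1 without animal 3 of MC set 6, CPA, PBO or Wy or animal 1 of PBO). With a replicate block in PB and CPA they became 2 (PBO and Wy), and 1 (PBO) with a replicate block in CPA alone, an alternative chosen after seeing the data; the block changed no other call. The F test over 15 compounds passed for 2 members, for 1 with trend and robust shrinkage, and for 1 to 2 without 1 animal, with 1 in 39 of 63 such fits. The class comparisons gave 0 calls in all 4 settings. The 3 animals a group limit the precision to the printed intervals, and GLUL values near 0 carry no order.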
